A study of Homo sapiens with 15 samples.

Results

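The 10 chemokine genes CXCL1, CXCL2, CXCL3, CXCL5, CXCL8, CXCL10, CXCL11, CXCL16, CCL5 and CCL20 were taken from the 60649 genes listed for each library by their symbols, whatever their counts. RNA was sequenced from HSC-5, a line from a human skin squamous cell carcinoma that expressed Cas9, under 5 conditions with 3 biological replicates each by the labels, 15 libraries in all. The sgNeg cells carried an empty vector and are labelled WT, sgPRMT5-1 and sgPRMT5-2 targeted PRMT5 and are labelled PRMT5 Knockout, and sgWDR77-1 and sgWDR77-2 targeted WDR77 and are labelled WDR77 Knockout. All 5 conditions carry the treatment label Neomycin, and each is a transduced population of cells. The comparisons ask how loss of PRMT5, an arginine methyltransferase, and of WDR77, its partner in a shared complex, changed RNA levels in these cells. Depth was 5146711 to 6730428 gene-assigned reads in a library.

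Chemokines are small secreted proteins that draw leukocytes along a gradient, and squamous carcinoma cells are a known source of several of them. CXCL1, CXCL2, CXCL3, CXCL5 and CXCL8 attract neutrophils through CXCR2, CXCL8 also through CXCR1, and are typical targets of NF-kB after IL-1 or TNF. CXCL10 and CXCL11 are induced by interferons and attract activated T cells through CXCR3. Among the others, CCL5 attracts T cells and monocytes, CCL20 attracts CCR6-bearing dendritic cells and T cells, and CXCL16 is a membrane-bound ligand of CXCR6.

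The targeted genes were read first. PRMT5 (ENSG00000100462.16) had 58.9 ± 9.1 CPM (counts scaled to a common library size; SD, n = 3) in sgNeg and 39.7 ± 4.61 CPM over the 6 libraries of both PRMT5 sgRNAs, called PRMT5KO. By limma voom with Benjamini-Hochberg adjustment over the 14061 genes tested, its log2 fold change was -0.67 for sgPRMT5-1 (adjusted p = 0.0057) and -0.45 for sgPRMT5-2 (adjusted p = 0.0114). WDR77 (ENSG00000116455.14) fell from 119 ± 5.7 CPM in sgNeg to 34.9 ± 14 CPM over the 6 libraries of WDR77KO. Its log2 fold change by limma voom with Benjamini-Hochberg adjustment was -1.43 for sgWDR77-1 (adjusted p = 2.01e-06) and -2.29 for sgWDR77-2 (adjusted p = 6.89e-09), and the sgRNAs differed by -0.85 (adjusted p = 0.0157). A transcript count does not show how much protein was left. On the annotation, 28.2% of the PRMT5 exon bases are overlapped on the opposite strand and 25.1% of the WDR77 exon bases on the same strand, so reads on those stretches are uncertain.

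The cell type label was checked on marker genes. Of 7 squamous markers 6 passed the count filter, a mean normalized count of at least 3, and their summed level was 1810 to 2900 CPM per library. KRT17, a keratin of activated keratinocytes, was the most abundant at 310 RPKM (CPM per kilobase of exon), whereas KRT14, a basal keratin, was nearly absent with 38 reads in all 15 libraries. Of the bases at which a 76-base read could start in KRT14, 6.88% gave a stretch shared with KRT16 or its copies. KRT5, the partner of KRT14, changed by -2.4 (SE 0.127) in PRMT5KO and by -3.42 (SE 0.133) in WDR77KO on the log2 scale, the desmosome gene DSG3 by -0.68 and -0.82, and PKP1 by -2.33 and -1.24. By sgRNA, KRT5 was at -1.27 in sgPRMT5-1 and -3.53 in sgPRMT5-2. These differed by -2.26 (adjusted p = 1.17e-08 by limma voom with Benjamini-Hochberg adjustment). KRT17 changed by 0.41 in WDR77KO, a call lost with both sgRNAs as 1 group (adjusted p = 0.242 by limma voom with Benjamini-Hochberg adjustment). Of the 6, 3 were lower in each knockout and 1 was higher in WDR77KO, where 22.8% of all genes tested were past the threshold, an adjusted p of 0.05, in PRMT5KO and 8.44% in WDR77KO, and TP63, a regulator of squamous identity, had 0.05 and 0.19, not past the threshold. Leukocyte markers summed to 1.63 to 5.66 CPM, with 3 of 7 past the filter, CD14 the most abundant at 0.587 RPKM and CD3E at 0 reads. The exon bases of CD68, another of them, are overlapped over 81.6% on the same strand, so this sum may be too low. The leukocyte sum was 1.86, 1.64 and 1.63 CPM in sgNeg, 1.8 CPM in sgWDR77-2 replicate 3 and higher in all other libraries. The part of the leukocyte markers in any chemokine value was not tested. ITGAM, a myeloid integrin with a mean normalized count under 10, changed by 1.88 in WDR77KO (adjusted p = 0.0447 by limma voom with Benjamini-Hochberg adjustment). ITGAM had an adjusted p of 0.0822 without sgNeg replicate 1, 0.192 without replicate 2, 0.144 without replicate 3, 0.0518 without sgWDR77-1 replicate 1, 0.0599 without its replicate 3, 0.0744 without sgWDR77-2 replicate 1 and 0.0776 without its replicate 2. It was also lost with no filter (0.0521), sample quality weights (0.0811), only the groups compared (0.0864) and both sgRNAs as 1 group (0.0663).

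In sgPRMT5-2, the PRMT5 sgRNA in which CCL20 passed, 2 of 3 tested leukocyte markers were past the threshold, both higher, with a median log2 fold change of 1.73 for the 3 beside 0.01 for all genes, of which 31.0% passed. By limma voom with Benjamini-Hochberg adjustment these were ITGAM with 1.87 (adjusted p = 0.0245) and CSF1R, a macrophage receptor, with 1.73 (adjusted p = 0.0419). Both had a mean normalized count of at least 3 but under 10, so their values rest on few reads. The ITGAM call was lost without sgNeg replicate 2 (0.119) or 3 (0.0657) and without sgPRMT5-2 replicate 2 (0.0739) or 3 (0.0518). That of CSF1R was lost without sgNeg replicate 1 (0.14), 2 (0.138) or 3 (0.0557), without sgPRMT5-2 replicate 1 (0.0951), 2 (0.0658) or 3 (0.0905), and with library totals alone (0.0552), no filter (0.0728) or the replicate block (0.0512). Of the other marker lists in sgPRMT5-2, VWF was at -2.28 (adjusted p = 0.00389), COL1A1 at -0.65 (adjusted p = 0.0477), PMEL at -1.41 (adjusted p = 0.0162), and 3 of 6 squamous markers were lower. VWF kept its call without sgPRMT5-2 replicate 1, but at -1.58 (adjusted p = 0.0402 by limma voom with Benjamini-Hochberg adjustment). The mean normalized count of VWF was also under 10. The PMEL call was lost without sgNeg replicate 1 (0.0531) or sgPRMT5-2 replicate 2 (0.122). That of COL1A1 was lost without sgNeg replicate 1 (0.101) or 2 (0.149), without sgPRMT5-2 replicate 1 (0.19) or 2 (0.147), and with upper quartile scaling (0.0673), no filter (0.102), the replicate block (0.0691) or limma-trend (0.0561). The part of these markers in the CCL20 value was not tested.

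In sgWDR77-1 against sgNeg, where 9.48% of all genes passed, 1 of 3 leukocyte markers was past the threshold, ITGAM with 2 (adjusted p = 0.0441 by limma voom with Benjamini-Hochberg adjustment), while 3 of 6 squamous markers were lower. The ITGAM call was lost without sgNeg replicate 1 (0.0706), 2 (0.149) or 3 (0.134), without sgWDR77-1 replicate 1 (0.0856) or 3 (0.0975), and with no filter (0.0552), sample quality weights (0.13) or only the groups compared (0.131). In sgWDR77-2 against sgWDR77-1, where 2.41% of all genes passed, 2 of 6 squamous markers were higher, with a median of 0.58 beside 0.01 for all genes. These were KRT5 with 1.19 (adjusted p = 0.00174, but 0.0641 with no filter) and KRT17 with 0.83 (adjusted p = 1.59e-05), both by the same fit. The squamous sum was 2360, 1970 and 1950 CPM in sgWDR77-1 and 2700, 2720 and 2750 CPM in sgWDR77-2. The part of these markers in the chemokine values was not tested.

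Fibroblast markers summed to 6.68 to 16.2 CPM, with 1 of 7 past the filter (COL1A1, 1.18 RPKM, not past the threshold in either knockout) and COL1A2 at 0 reads. Endothelial markers summed to 12.7 to 36.1 CPM, with 2 of 5 past the filter, CDH5 the most abundant at 3.33 RPKM and KDR and TEK at 0 reads. VWF, which encodes von Willebrand factor, changed by -1.9 (SE 0.417) in PRMT5KO. The endothelial sum was highest in sgWDR77-1, at 34.2, 31.3 and 36.1 CPM, the condition in which CXCL1 and CCL20 were also highest. CDH5, by limma voom with Benjamini-Hochberg adjustment, was 0.8 in sgWDR77-1 against sgNeg (adjusted p = 0.00325) and -0.85 in sgWDR77-2 against sgWDR77-1 (adjusted p = 0.012, but 0.0617 with only the groups compared). In PRMT5KO against WDR77KO, 2 of 2 tested endothelial markers were past the threshold, CDH5 with -0.56 (adjusted p = 0.0021) and VWF with -1.41 (adjusted p = 0.0107), a median of -0.98 in the direction of CXCL1, CCL20 and CXCL16, where 27.1% of all genes were past the threshold. Of 6 squamous markers 1 was higher and 2 were lower there. Over the other settings KRT5 was at 0.91 to 1.07, PKP1 at -1.18 to -0.97 and KRT17 at -0.5 to -0.42. Leukocyte markers had a median of 0.89, with 0 of 3 past the threshold. The part of these markers in the chemokine values was not tested. Melanocyte markers summed to 2.55 to 7.48 CPM, with 2 of 4 past the filter, PMEL the most abundant at 0.948 RPKM and TYR and DCT at 0 reads. PMEL changed by -1.12 (SE 0.333) in PRMT5KO, a call lost without sgNeg replicate 1 (adjusted p = 0.0821 by limma voom with Benjamini-Hochberg adjustment) or 2 (0.078) and without sgPRMT5-2 replicate 2 (0.0554). In PRMT5KO against WDR77KO PMEL was at -0.92 (adjusted p = 0.0252 by the same fit), a call lost without sgPRMT5-1 replicate 2 (0.0545), sgPRMT5-2 replicate 2 (0.0986) or sgWDR77-2 replicate 2 (0.101) and with no filter (0.05 after rounding). In a bulk library, fewer cells that express a gene and less RNA per cell cannot be told apart.

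On the GRCh38 assembly with GENCODE release 44, the neutrophil-attracting genes lie together on chromosome 4 within 359 kb. CXCL8 (ENSG00000169429.11) spans 73740519 to 73743716, CXCL1 (ENSG00000163739.5) 73869393 to 73871308, and CXCL5 (ENSG00000163735.7) 73995642 to 73998677. CXCL3 (ENSG00000163734.4) spans 74036589 to 74038807 and CXCL2 (ENSG00000081041.9) 74097040 to 74099196. The interferon-induced pair lies 1922 kb further along the same chromosome within 20.3 kb, with CXCL10 (ENSG00000169245.6) at 76021118 to 76023497 and CXCL11 (ENSG00000169248.13) at 76033682 to 76041415. The other 3 genes lie elsewhere. CCL20 (ENSG00000115009.13) is on chromosome 2 from 227805739 to 227817564. CXCL16 (ENSG00000161921.17) and CCL5 (ENSG00000271503.6) are on chromosome 17 from 4733533 to 4739928 and from 35871491 to 35880793.

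The neutrophil-attracting genes arose by duplication, and reads from near-identical stretches cannot be placed on one gene. Of the 76-base stretches of CXCL2, 7.41% also occurred in CXCL1 or CXCL3, as did 4.52% of those of CXCL3 in CXCL2, whereas CXCL1 shared 0.155% and CXCL8 and CCL20 shared 0. CCL5 shared 8.73% of its stretches with repeats in many genes. Exons of CXCL5 and CXCL16 were overlapped by genes on the opposite strand over 17.3% and 6.16% of their bases. The strand setting and annotation release of the counting are not given in the sources used here, so these genes are uncertain to that extent.

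The bases around the start of 4 of these genes are shown because CXCL1, CXCL8 and CCL20 carried most of the differences described here and CXCL10 stands for the interferon-induced pair. They are RefSeq sequences of GRCh38.p14, 300 bases that span the start used in the RefSeq table, 5′ to 3′ on the strand of the gene. For CXCL8 that start lies 50 bases inside the GENCODE gene, and for CCL20 8103 bases inside it, whereas for CXCL1 and CXCL10 they coincide. Capitals mark GGNNNTTCC on either strand, the general form of an NF-kB site, and in CXCL10 also GAAANNGAA, the core of an interferon-stimulated response element. CXCL1 is chr4:73869143-73869442 on the plus strand, CXCL8 chr4:73740319-73740618 on the plus strand, CCL20 chr2:227813592-227813891 on the plus strand and CXCL10 chr4:76023448-76023747 on the minus strand.
CXCL1: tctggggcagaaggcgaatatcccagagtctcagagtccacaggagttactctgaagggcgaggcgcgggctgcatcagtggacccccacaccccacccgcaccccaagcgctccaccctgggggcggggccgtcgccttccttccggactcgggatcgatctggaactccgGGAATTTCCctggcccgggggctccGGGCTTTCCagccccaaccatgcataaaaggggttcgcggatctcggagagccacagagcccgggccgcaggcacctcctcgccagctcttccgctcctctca
CXCL8: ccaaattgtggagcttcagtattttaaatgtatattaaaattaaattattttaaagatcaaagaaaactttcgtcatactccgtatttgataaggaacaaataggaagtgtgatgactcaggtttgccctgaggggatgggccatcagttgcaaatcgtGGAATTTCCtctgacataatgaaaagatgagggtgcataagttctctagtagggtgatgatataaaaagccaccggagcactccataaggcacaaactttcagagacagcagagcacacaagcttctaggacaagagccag
CCL20: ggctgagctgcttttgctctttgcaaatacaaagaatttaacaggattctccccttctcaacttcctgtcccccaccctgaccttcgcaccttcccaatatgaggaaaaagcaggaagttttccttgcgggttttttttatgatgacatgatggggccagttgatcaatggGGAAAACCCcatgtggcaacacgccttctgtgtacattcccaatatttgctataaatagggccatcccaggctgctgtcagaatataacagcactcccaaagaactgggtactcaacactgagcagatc
CXCL10: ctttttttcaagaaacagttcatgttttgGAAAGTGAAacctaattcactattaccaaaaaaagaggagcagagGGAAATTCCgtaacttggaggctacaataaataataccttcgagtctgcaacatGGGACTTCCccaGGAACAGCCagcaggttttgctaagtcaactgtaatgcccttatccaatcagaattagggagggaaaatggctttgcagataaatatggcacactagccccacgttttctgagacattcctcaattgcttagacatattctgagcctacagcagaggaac

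The promoter table held 8 of the 10 genes, and CXCL16 and CCL5 had no entry. GGNNNTTCC was present in 8 of 8, on either strand, and in 20.1% of all 35116 promoters of the table. The narrower GGAATTTCC was present in 7 of 8, CCL20 being the exception, and in 0.461% of all promoters. In CXCL1 the matches began at -78 and -53 from the start in that table, in CXCL8 at -91 and in CCL20 at -79. GAAANNGAA was found in 3 of 8, CXCL2, CXCL3 and CXCL10, and in 8.11% of all promoters. A match describes the letters and does not show that a factor binds there.

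CXCL8 and CXCL1 dominated the chemokine RNA of these cells. Per length, the mean level over the 15 libraries was 159 RPKM for CXCL8, 150 RPKM for CXCL1, 12 RPKM for CXCL2, 10.9 RPKM for CCL20 and 6.78 RPKM for CXCL16. CXCL3 followed at 1.9 RPKM, CCL5 at 0.885 RPKM, CXCL11 at 0.298 RPKM and CXCL10 at 0.274 RPKM, and CXCL5 was the lowest at 0.0143 RPKM. CXCL8 and CXCL1 together took 89.6% to 92.7% of the reads on the 10 genes in each library. Of the 10 genes, 8 passed the count filter and were tested. CXCL5, with 3 reads over all libraries, and CXCL10, with 27, did not pass.

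The neutrophil-attracting class and the interferon-induced class differed by orders of magnitude in level. Summed over its 5 genes, the neutrophil-attracting class had 931 ± 215 CPM in sgWDR77-1 and 639 ± 201 in sgWDR77-2, beside 516 ± 118 in sgNeg, 552 ± 144 in sgPRMT5-1 and 545 ± 12.5 in sgPRMT5-2 (SD, n = 3 each). CXCL10 and CXCL11 summed to 0.918 ± 0.478 CPM in sgWDR77-1 and 1.15 ± 0.894 in sgWDR77-2, beside 0.675 ± 0.312 in sgNeg, 0.71 ± 0.347 in sgPRMT5-1 and 0.811 ± 0.454 in sgPRMT5-2. Every condition was thus led by neutrophil-attracting RNA, and sgWDR77-1 had the highest mean of that class. The interferon-induced pair rested on 74 reads in all 15 libraries against 54897 for the other class. Its condition means differed by less than the SD in sgWDR77-2.

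**Figure D1:**
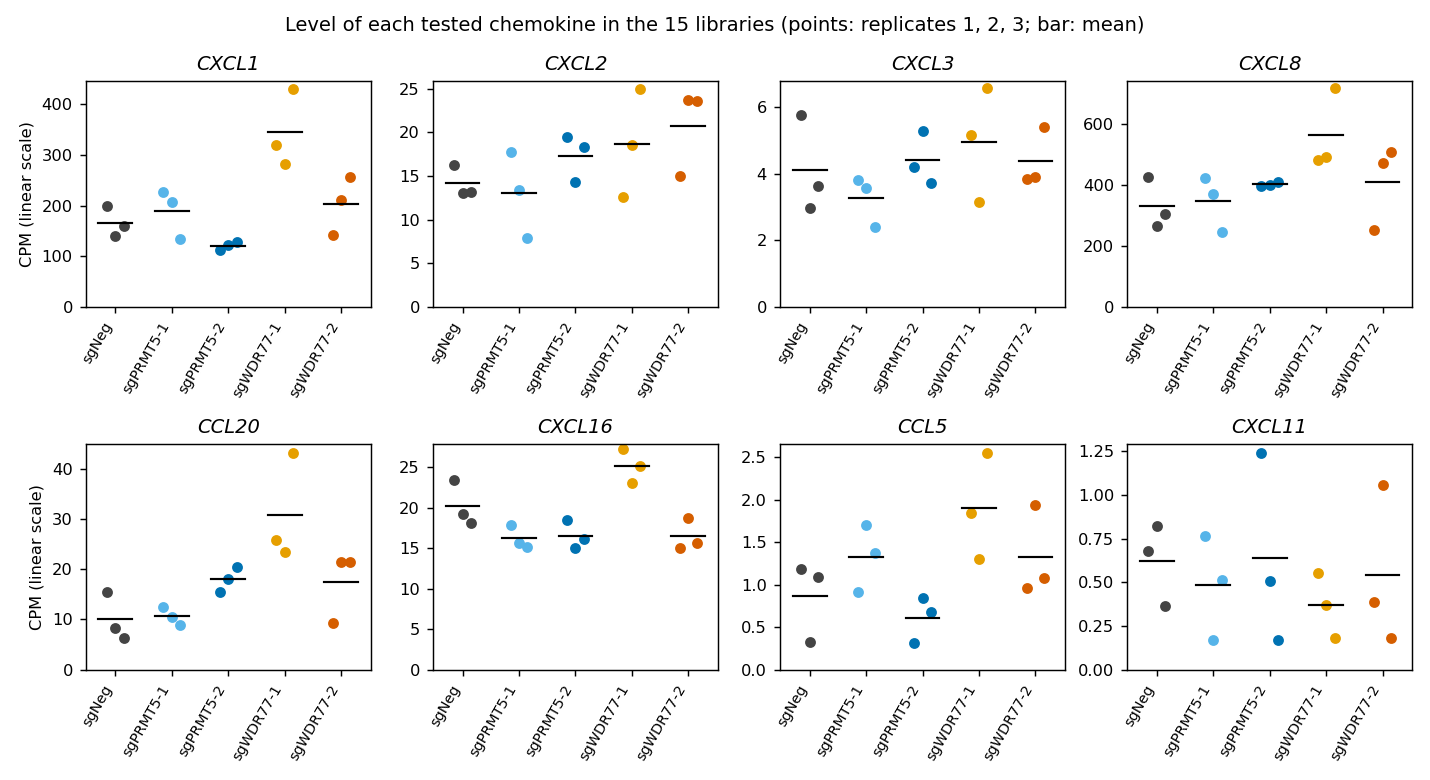
Level of each of the 8 tested chemokines in CPM on a linear axis from 0, in each library of the 5 conditions (points, replicates 1 to 3; bar, mean). CXCL1 in sgWDR77-1, at 283 to 430 CPM, lies above all other libraries, while CXCL11 stays between 0.169 and 1.24 CPM.

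In sgWDR77-1, RNA of CXCL1, CXCL8 and CCL20 was higher than in sgNeg 2.06-fold, 1.7-fold and 3.15-fold. CXCL1 was at 199, 140 and 160 CPM in sgNeg replicates 1 to 3 and at 320, 283 and 430 CPM in sgWDR77-1. All 3 sgWDR77-1 libraries were above all 3 sgNeg libraries. By limma voom with Benjamini-Hochberg adjustment the log2 fold change of CXCL1 was 1.04 (SE 0.191, 95% confidence interval 0.65 to 1.44, adjusted p = 0.0012). This call held in 15 of 15 other settings, with adjusted p from 9e-05 to 0.0125. The sgWDR77-1 libraries were uneven. The chi-square per degree of freedom was 12.5 and 17.7 for replicate 1 against replicates 2 and 3, and 3.21 between replicates 2 and 3. Reads on no feature were 3.57%, 6.04% and 5.7% in sgWDR77-1, beside 2.84%, 7.16% and 3.56% in sgNeg. The part of this in the chemokine values was not tested beyond leaving each library out.

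CCL20 was at 15.4, 8.22 and 6.35 CPM in sgNeg and at 25.7, 23.5 and 43.1 CPM in sgWDR77-1, again with no overlap of the libraries. Its log2 fold change by limma voom with Benjamini-Hochberg adjustment was 1.65 (SE 0.309, adjusted p = 0.00147), and CCL20 passed in 15 of 15 other settings. CXCL8 was at 427, 264 and 304 CPM in sgNeg and at 481, 490 and 717 CPM in sgWDR77-1. The CXCL8 libraries did not overlap either, but the lowest of sgWDR77-1 was close to the highest of sgNeg. The log2 fold change of CXCL8 by limma voom with Benjamini-Hochberg adjustment was 0.77 (SE 0.218, adjusted p = 0.029). The CXCL8 call was lost without sgNeg replicate 2 (adjusted p = 0.128), without sgNeg replicate 3 (adjusted p = 0.129), without sgWDR77-1 replicate 3 (adjusted p = 0.0995), and with no filter on low counts (adjusted p = 0.0617).

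These 3 of 8 tested chemokines were past the threshold in sgWDR77-1 against sgNeg, all of them higher, where 9.48% of all genes tested were. At an unadjusted p under 0.05, 5 were, CXCL16 and CCL5 in addition. The median log2 fold change of the 8 was 0.56, and that of all genes -0.01. CXCL16 was 0.32 (SE 0.141) and CCL5 1.2 (SE 0.516) on the log2 scale, CXCL2 0.35 and CXCL3 0.26, all short of the threshold by limma voom. CXCL2 in sgWDR77-1 ranged from 12.6 to 25 CPM, which took in its whole range of 13.1 to 16.3 CPM in sgNeg.

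In sgWDR77-2 the same genes had smaller values and 0 of 8 passed by limma voom against sgNeg, where 4.79% of all genes did. At an unadjusted p under 0.05 there were 2, CXCL2 and CCL20. CXCL1 was at 142, 212 and 256 CPM, CXCL8 at 251, 471 and 508 CPM, and CCL20 at 9.24, 21.4 and 21.4 CPM. Replicate 1 was the lowest for all 3 genes and fell within the sgNeg range or, for CXCL8, below it. The log2 fold changes against sgNeg were 0.27 for CXCL1, 0.27 for CXCL8, 0.8 for CCL20 and 0.53 for CXCL2. Without sgWDR77-2 replicate 1, CCL20 passed with 1.16 (adjusted p = 0.0355 by limma voom with Benjamini-Hochberg adjustment), as did CCL20 (0.0144) and CXCL2 (0.0348) when sample quality weights were used. The median of the 8 was 0.27 beside 0.02 for all genes.

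Whether the WDR77 sgRNAs differed was tested directly. In sgWDR77-2 against sgWDR77-1, 2 of 8 chemokines were past the threshold, both lower in sgWDR77-2, where 2.41% of all genes tested were, and 4 were at an unadjusted p under 0.05. By limma voom with Benjamini-Hochberg adjustment, CXCL1 differed by -0.78 (SE 0.19, adjusted p = 0.0338) and CXCL16 by -0.61 (SE 0.149, adjusted p = 0.0314). CXCL16 was at 27.3, 23.1 and 25.2 CPM in sgWDR77-1 and at 15, 18.7 and 15.7 CPM in sgWDR77-2, against 23.4, 19.2 and 18.1 CPM in sgNeg. The sgWDR77-1 and sgWDR77-2 libraries did not overlap for CXCL16, and those of sgNeg overlapped both. The CXCL1 call was lost without sgWDR77-1 replicate 3 (adjusted p = 0.0865) and without sgWDR77-2 replicate 1 (0.232) or replicate 2 (0.0796), and with no filter (0.0637), the replicate block (0.0529) or only the groups compared (0.182). The CXCL16 call was lost without sgWDR77-2 replicate 1 (0.165), replicate 2 (0.0521) or replicate 3 (0.0663), and with no filter (0.0598) or only the groups compared (0.2). WDR77 RNA was lower in sgWDR77-2 than in sgWDR77-1, so the sgRNA with less WDR77 RNA had less CXCL1 and CXCL16 RNA, and the part of the WDR77 level in that was not tested.

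Pooled over both sgRNAs, WDR77KO had higher CXCL1 and CCL20 RNA than sgNeg, 1.58-fold and 2.34-fold. These 2 of 8 were past the threshold, where 8.44% of all genes tested were, and 3 of 8 were at an unadjusted p under 0.05. CXCL1 had a log2 fold change of 0.66 (SE 0.168, adjusted p = 0.0158 by limma voom with Benjamini-Hochberg adjustment), and its libraries ranged from 142 to 430 CPM with a median of 269. CCL20 had 1.23 (SE 0.291, adjusted p = 0.00926 by the same fit), with a range of 9.24 to 43.1 CPM and a median of 22.5. CXCL8 had 0.52 (SE 0.19, adjusted p = 0.0957), with a range of 251 to 717 CPM and a median of 486. Both calls were lost without either of 2 sgNeg libraries. Without sgNeg replicate 2 the adjusted p was 0.122 for CXCL1 and 0.0672 for CCL20, and without sgNeg replicate 3 it was 0.0961 and 0.105. Without sgWDR77-2 replicate 1, CXCL8 passed with 0.66 (adjusted p = 0.0106), and with sample quality weights CXCL8 (0.00797) and CXCL2 (0.0453) did. With both sgRNAs treated as 1 group, CXCL1 had an adjusted p of 0.166 and CCL20 of 0.0818. The median of the 8 was 0.48 beside 0 for all genes.

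As in sgWDR77-2, 0 of 8 chemokines passed in PRMT5KO against sgNeg by limma voom, where 22.8% of all genes tested did in PRMT5KO. That share of the chemokines was not tested against that of all genes. At an unadjusted p under 0.05 there was 1, CXCL16, with a log2 fold change of -0.3 (SE 0.128, adjusted p = 0.096 by limma voom with Benjamini-Hochberg adjustment). CXCL16 in PRMT5KO ranged from 15 to 18.5 CPM with a median of 15.8, and 5 of its 6 libraries were below the lowest sgNeg library at 18.1 CPM. Without sgNeg replicate 3, CXCL16 passed with -0.41 (adjusted p = 0.0486), as it did with library totals alone at -0.38 (0.0344). The log2 fold change was -0.14 for CXCL1, 0.18 for CXCL8, 0.55 for CCL20, 0.05 for CXCL2 and -0.08 for CXCL3, and the median of the 8 was -0.01 beside 0.01 for all genes. The comparisons against sgNeg use the same 3 sgNeg libraries.

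Each PRMT5 sgRNA was also compared with sgNeg alone. In sgPRMT5-1, 0 of 8 passed by limma voom, where 2.87% of all genes did, and 1 was at an unadjusted p under 0.05, CXCL16 at -0.31. CXCL1 was at 226, 208 and 134 CPM, CXCL8 at 422, 369 and 247 CPM and CCL20 at 12.5, 10.5 and 8.9 CPM, and each of these overlapped sgNeg. In sgPRMT5-2, 1 of 8 passed, CCL20, where 31.0% of all genes did, and 2 were at an unadjusted p under 0.05. The share of the chemokines was not tested against that of all genes. CCL20 was at 15.5, 18 and 20.5 CPM, with all 3 libraries above those of sgNeg, though replicate 1 only by a margin smaller than the spread.

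The log2 fold change of CCL20 in sgPRMT5-2 was 0.92 (SE 0.323, adjusted p = 0.0331 by limma voom with Benjamini-Hochberg adjustment). The call of CCL20 was lost without sgNeg replicate 2 (adjusted p = 0.126) or 3 (0.192), without sgPRMT5-2 replicate 2 (0.0876) or 3 (0.12), with library totals alone as the scaling (0.0657) and with no filter on low counts (0.0815). CXCL1 in sgPRMT5-2 was at 113, 123 and 128 CPM, below all 3 sgNeg libraries, with -0.44 (SE 0.199, adjusted p = 0.0979). CXCL8 in the same libraries was at 398, 399 and 409 CPM, inside the sgNeg range, with 0.31 (SE 0.219, adjusted p = 0.302). With the fit restricted to the groups compared, CXCL1 passed at -0.45 (adjusted p = 0.00139) and CXCL8 at 0.3 (adjusted p = 0.0357), in opposite directions, and with sample quality weights CXCL1 passed at -0.47 (0.01).

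In sgPRMT5-2 against sgPRMT5-1, 0 of 8 chemokines passed by limma voom, where 7.53% of all genes tested did, and 2 were at an unadjusted p under 0.05. These were CXCL1 with -0.61 (SE 0.198, adjusted p = 0.0618) and CCL20 with 0.75 (SE 0.31, adjusted p = 0.142), both by limma voom with Benjamini-Hochberg adjustment. Without sgPRMT5-1 replicate 3, the lowest of its group for CXCL1, CXCL1 passed with -0.82 (adjusted p = 0.00968). Both passed with only the groups compared (CXCL1 0.00225, CCL20 0.00374) and with sample quality weights (0.000127 and 0.0255). CXCL8 differed by 0.25 and CXCL16 by 0.02.

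**Figure D2:**
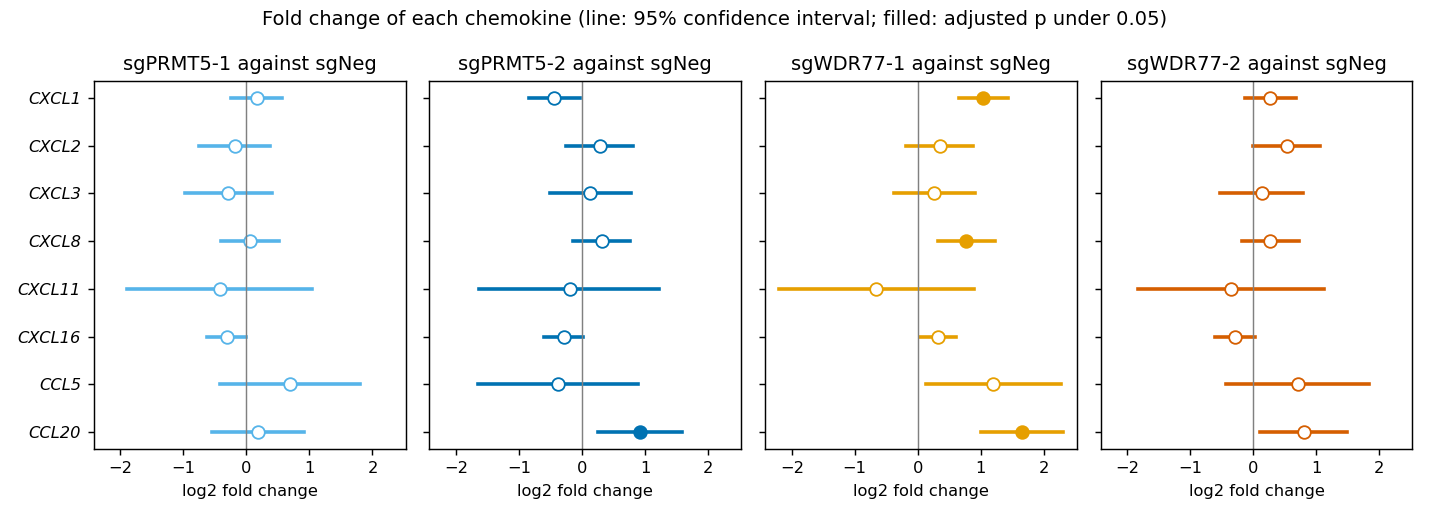
Log2 fold change of the 8 tested chemokines for each sgRNA against sgNeg (x axis; lines, 95% confidence intervals; filled points, adjusted p under 0.05). Filled points are CCL20 in sgPRMT5-2 at 0.92 and CXCL1, CXCL8 and CCL20 in sgWDR77-1 at 1.04, 0.77 and 1.65, while the intervals of CXCL11 are the widest, from -2.2 to 0.89 in sgWDR77-1.

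Compared with each other rather than with sgNeg, PRMT5KO had lower CXCL1, CCL20 and CXCL16 RNA than WDR77KO. The WDR77 sgRNAs were not alike in this. Mean CXCL16 was 25.2 CPM in sgWDR77-1 but 16.5 in sgWDR77-2, level with 16.2 in sgPRMT5-1 and 16.5 in sgPRMT5-2. Mean CCL20 was 30.7 CPM in sgWDR77-1 but 17.3 in sgWDR77-2, beside 10.7 in sgPRMT5-1 and 18 in sgPRMT5-2. Of 8 tested, 3 were past the threshold, all lower in PRMT5KO, where 27.1% of all genes tested were, and 6 were at an unadjusted p under 0.05. The share of chemokines was close to that of all genes, while the median of the 8 was -0.36 beside 0.02. CXCL1 ranged from 113 to 226 CPM with a median of 131 in PRMT5KO and from 142 to 430 CPM with a median of 269 in WDR77KO. Its log2 difference was -0.79 (SE 0.137, 95% confidence interval -1.08 to -0.51, adjusted p = 0.000224 by limma voom with Benjamini-Hochberg adjustment), and CXCL1 passed in 21 of 21 other settings. Both sgRNAs as 1 group was not among these settings, since it was run only against sgNeg. The difference between sgRNAs of a gene therefore does not enter this SE. CXCL1 in sgWDR77-2, at 142 to 256 CPM, overlapped sgPRMT5-1 at 134 to 226 CPM.

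CCL20 differed by -0.68 (SE 0.206, adjusted p = 0.0183) and CXCL16 by -0.31 (SE 0.107, adjusted p = 0.0333) between PRMT5KO and WDR77KO by limma voom with Benjamini-Hochberg adjustment. The CCL20 ranges overlapped, 8.9 to 20.5 CPM against 9.24 to 43.1 CPM, and so did those of CXCL16, 15 to 18.5 CPM against 15 to 27.3 CPM. The CCL20 call was lost without sgPRMT5-1 replicate 3 (adjusted p = 0.0577), without sgWDR77-2 replicate 2 (0.0725) or 3 (0.0708), and with no filter on low counts (0.0514). The CXCL16 call was lost without sgPRMT5-1 replicate 2 (0.0513) or 3 (0.0691), without sgPRMT5-2 replicate 2 (0.0807), without sgWDR77-2 replicate 2 (0.105), and with no filter (0.0651). CXCL2 had -0.39 (adjusted p = 0.113), CXCL8 -0.34 (adjusted p = 0.108) and CCL5 -0.8 (adjusted p = 0.112) by the same fit. CXCL8 passed without sgWDR77-1 replicate 1 (-0.41, adjusted p = 0.0451) or sgWDR77-2 replicate 1 (-0.5, adjusted p = 0.00602). CXCL2 passed without sgPRMT5-1 replicate 1 (-0.55, adjusted p = 0.0364), sgWDR77-1 replicate 1 (-0.54, adjusted p = 0.0152) or sgWDR77-2 replicate 1 (-0.49, adjusted p = 0.038). With sample quality weights both passed (CXCL8 0.00765, CXCL2 0.00758).

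Ordered by mean CPM, CXCL1 ran from sgPRMT5-2 at 121 ± 7.6 through sgNeg at 166 ± 30, sgPRMT5-1 at 189 ± 48.9 and sgWDR77-2 at 204 ± 57.2 to sgWDR77-1 at 344 ± 76.6 (SD, n = 3 each). The libraries of neighbours overlapped except between sgPRMT5-2 and sgNeg and between sgWDR77-2 and sgWDR77-1. CCL20 ran from sgNeg at 9.99 ± 4.78 through sgPRMT5-1 at 10.7 ± 1.82, sgWDR77-2 at 17.3 ± 7.02 and sgPRMT5-2 at 18 ± 2.46 to sgWDR77-1 at 30.7 ± 10.7, and only sgPRMT5-2 and sgWDR77-1 were neighbours without overlap. CXCL8 ran from sgNeg at 332 ± 84.7 through sgPRMT5-1 at 346 ± 89.8, sgPRMT5-2 at 402 ± 6.13 and sgWDR77-2 at 410 ± 139 to sgWDR77-1 at 563 ± 134, with all neighbours overlapping. The other 5 tested genes overlapped between all neighbours. Their lowest and highest means were 13 and 20.8 CPM for CXCL2, 3.26 and 4.96 for CXCL3, 16.2 and 25.2 for CXCL16, 0.613 and 1.9 for CCL5, and 0.369 and 0.641 for CXCL11.

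The ratio of CXCL8 to CXCL1 reads was highest in sgPRMT5-2 and ran from 1.5 to 2.22 over the 12 libraries of the other conditions. It was 2.15, 1.89 and 1.9 for replicates 1 to 3 of sgNeg and 1.87, 1.78 and 1.85 for those of sgPRMT5-1. It was 1.5, 1.73 and 1.67 for sgWDR77-1 and 1.76, 2.22 and 1.99 for sgWDR77-2. For sgPRMT5-2 it was 3.52, 3.24 and 3.2. All 3 sgPRMT5-2 libraries lay above the 12 other libraries, with a mean of 3.32 ± 0.176 against 1.98 ± 0.145 in sgNeg (SD, n = 3 each). The log2 ratio differed by 0.75 from sgNeg and by 0.86 from sgPRMT5-1. By an exact two-sided permutation test each gave p = 0.1, the smallest that 3 against 3 libraries allow with 20 arrangements. The exact test also gave that smallest p for sgPRMT5-1 at -0.11 and sgWDR77-1 at -0.28 against sgNeg, where the libraries did not overlap either, while for sgWDR77-2, with a difference of 0, the exact p was 1. Pooled, WDR77KO differed from PRMT5KO by -0.46 with an exact p of 0.0736, where 6 against 6 libraries allow 0.00216 with 924 arrangements. This ratio needs no library scaling, and it was chosen after the values were seen.

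**Figure D3:**
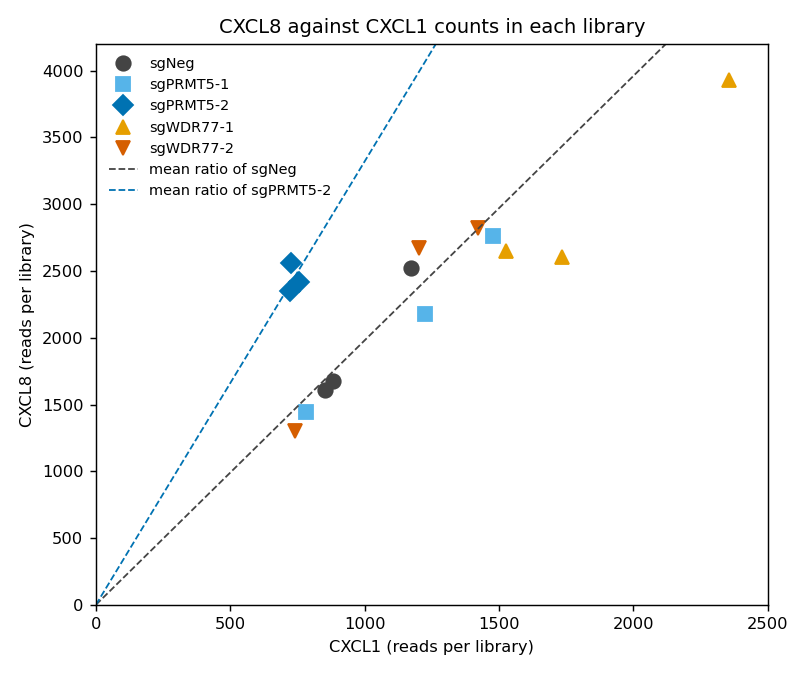
Reads of CXCL8 (y axis) against reads of CXCL1 (x axis) in each of the 15 libraries, with dashed lines at the mean ratio of sgNeg, 1.98, and of sgPRMT5-2, 3.32. The 3 sgPRMT5-2 libraries lie on the steeper line, and the other 12, at 1.5 to 2.22, lie below it.

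Within a condition the replicates differed in CXCL1, CXCL8 and CCL20 together. The replicate with the highest CXCL1 was also the highest in CXCL8 and in CCL20 in 5 of 5 conditions. The lowest replicate was shared by CXCL1 and CXCL8 in 4 of 5 and by CXCL1 and CCL20 in 4 of 5. The highest replicate was replicate 1 in sgNeg and sgPRMT5-1 and replicate 3 in the other conditions. The highest over the lowest library was 1.8 for CXCL1, 2.03 for CXCL8 and 2.32 for CCL20 in sgWDR77-2, and 1.13, 1.03 and 1.32 in sgPRMT5-2, the widest and the narrowest spread of CXCL1 and of CXCL8. CXCL2 shared its highest replicate with CXCL1, CXCL8 and CCL20 in 3 of 5 conditions each, and CXCL16 shared its own with CXCL1 in 2 of 5.

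The interferon-induced pair was at the limit of what this depth can show. A floor of 3 reads corresponds to 0.458 to 0.578 CPM per library, counting error only. CXCL10 had 1 read in the 3 sgNeg libraries, 7 in the 6 of PRMT5KO and 19 in the 6 of WDR77KO, 7 of these last in 1 library of sgWDR77-1. The ratio of WDR77KO to sgNeg, scaled for depth, was 10.2 with a 95% counting interval of 1.62 to 423, and that of PRMT5KO to sgNeg 3.36 with an interval of 0.431 to 151. WDR77KO over PRMT5KO was 3.03 with an interval of 1.22 to 8.53. These intervals hold counting error and not the spread between replicates, and single libraries of CXCL10 ranged from 0.18 to 1.28 CPM in WDR77KO.

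CXCL11 had 11 reads in sgNeg, 21 in PRMT5KO and 15 in WDR77KO, and its ratios were 0.915 (95% counting interval 0.422 to 2.1) for PRMT5KO and 0.73 (0.313 to 1.76) for WDR77KO over sgNeg. A difference of that size was not detectable at this depth. In limma voom its log2 fold change was -0.31 (SE 0.597) in PRMT5KO and -0.51 (SE 0.616) in WDR77KO. In the direct comparison of the knockouts CXCL11 had 0.2 with a 95% confidence interval of -0.91 to 1.3. This interval takes in the CXCL1 value of -0.79, so a difference between CXCL11 and CXCL1 is not shown.

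CCL5 was measured with 103 reads in all, 2 to 14 per library. Its mean ran from sgPRMT5-2 at 0.613 ± 0.275 CPM through sgNeg at 0.867 ± 0.469, sgPRMT5-1 at 1.33 ± 0.392 and sgWDR77-2 at 1.33 ± 0.535 to sgWDR77-1 at 1.9 ± 0.631 (SD, n = 3 each). Its order of conditions was that of CXCL1, from sgPRMT5-2 to sgWDR77-1, but all neighbours overlapped. CXCL3, with 365 reads, stayed between 2.4 and 6.57 CPM. CXCL5 had 2 reads in sgPRMT5-1 and 1 in sgWDR77-1 and was listed at 0 in the other conditions.

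The genes most like each chemokine over the 15 libraries were found among 11843 genes by the Pearson correlation of log2 CPM, as a description. They share libraries and conditions, so a correlation includes the differences between conditions. Among the genes most like CXCL1 were INSIG1 (r = 0.956) and TMEM135 (0.947). CXCL8 was most like NFKBIA (0.936), which encodes an inhibitor of NF-kB, CCL20 (0.914) and TAPT1 (0.906), and CCL20 was most like CXCL8 (0.914), USP31 (0.911) and RNF144B (0.911). For CXCL2 they were NFKBIZ (0.823), EIF2AK3 (0.816) and EDN1 (0.807), and for CXCL3 TPT1 (0.792), KDM4C (0.769) and EDN1 (0.752). CXCL16 was most like PPM1L (0.911), CYP24A1 (0.9) and GTF2IP4 (0.865). For the low-count genes they were NIFK-AS1 (0.887), HADHA (0.858) and FDFT1 (0.825) for CCL5 and MSL1 (0.793), POC5 (0.719) and GIT2 (0.702) for CXCL11.

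Of 36 other chemokine ligands, 22 had 0 reads in all libraries and 5 passed the filter, CXCL17, CX3CL1, XCL1, CCL22 and CCL26. Among those at 0, exon bases are overlapped on the same strand over 97.6% in CCL27, 52.1% in PF4, 41.8% in CCL15 and 34.7% in PPBP. Those of CCL3, also at 0, are overlapped over 74.6% on the opposite strand. The 0 reads of these genes do not show that they were absent. CX3CL1, a membrane-bound ligand that draws monocytes and T cells, had 7.37 ± 3.38 CPM in sgNeg (SD, n = 3), 0.411 ± 0.352 in PRMT5KO and 3.44 ± 0.908 in WDR77KO (n = 6 each). By limma voom with Benjamini-Hochberg adjustment CX3CL1 changed by -4.2 in PRMT5KO (SE 0.487, adjusted p = 2.84e-06), by -1.01 in WDR77KO (adjusted p = 0.0247), and by -3.18 between the knockouts (adjusted p = 6.65e-05). The PRMT5KO value ran from -4.53 to -3.39 over the other settings, and that between the knockouts from -3.52 to -2.42. The PRMT5KO mean lay below the floor of 3 reads, 0.458 to 0.578 CPM, so the size of this fall is uncertain. The WDR77KO call of CX3CL1 was lost without sgNeg replicate 3 (adjusted p = 0.176), without sgWDR77-2 replicate 2 (0.0537), and with no filter (0.0608), limma-trend (0.0785), the groups compared alone (0.0549) or both sgRNAs as 1 group (0.0575). CXCL1 and CXCL8 were not past the threshold in PRMT5KO, where CX3CL1 was. CXCL17, a mucosal chemokine, had 18 reads in the 3 sgNeg libraries, 8 in the 6 of PRMT5KO and 68 in the 6 of WDR77KO, and was at 0 in all 3 of sgPRMT5-2. CXCL17 passed the filter through its reads in WDR77KO, so only its reads are given. CCL22 differed by -1.09 between them (adjusted p = 0.015, 0.0503 without sgWDR77-2 replicate 3), while XCL1 had 0.33 and 0.02 and CCL26 -0.58 and -0.23 in PRMT5KO and WDR77KO.

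Few reads were counted on the receptors. Of 23 chemokine receptors, 8 had 0 reads in all libraries and 3 passed the filter, among them the scavenging receptor ACKR3 but none of CXCR1, CXCR2, CXCR3 or CCR6, the signalling receptors of CXCL8, CXCL10 and CCL20. The exon bases of CCR6 are overlapped over 85.2% by another gene on the same strand, so its 0 reads do not show that CCR6 was absent. ACKR3 had 6.09 ± 2.94 CPM in sgNeg, 0.925 ± 0.8 in PRMT5KO and 1.53 ± 0.934 in WDR77KO, or -3.01 (adjusted p = 5.75e-05) and -2 (adjusted p = 0.000919) on the log2 scale by limma voom with Benjamini-Hochberg adjustment. CCR3 changed by -1.14 in PRMT5KO (adjusted p = 0.0439), a call that ended without each sgNeg library (0.13, 0.0516 and 0.0993 for replicates 1 to 3), without sgPRMT5-1 replicate 3 (0.0837) and without sgPRMT5-2 replicate 1 (0.114), 2 (0.0713) or 3 (0.0525), and with no filter (0.0785), the replicate block (0.0643) or both sgRNAs as 1 group (0.133). Of 9 proteases that trim or shed chemokines, 4 passed the filter. ADAM10, which sheds CXCL16 and CX3CL1 from the membrane, changed by -0.32 in PRMT5KO (adjusted p = 0.0241, but 0.111 without sgNeg replicate 1, 0.0604 without replicate 2, 0.0687 with upper quartile scaling and 0.0953 with both sgRNAs as 1 group). In WDR77KO the collagenase MMP1 changed by -2 (adjusted p = 1.42e-06) and MMP14 by -0.4 (adjusted p = 0.00687, but 0.0512 without sgNeg replicate 1 and 0.0545 with both sgRNAs as 1 group).

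The NF-kB list was measured in full, with 23 of 23 genes tested. In PRMT5KO, where 22.8% of all genes were past the threshold, 10 were higher and 1 lower, with a median log2 fold change of 0.21 beside 0.01 for all genes. With both sgRNAs as 1 group 6 were higher, and by sgRNA 4 were in sgPRMT5-1 (2.87% of all genes) and 12 in sgPRMT5-2 (31.0%), where 2 were lower. TRAF1, a signalling adaptor of TNF receptors, rose by 2.31, the adhesion molecule ICAM1 by 0.84 and TNIP1, an inhibitor of NF-kB, by 0.64. In WDR77KO, with 8.44% of all genes past the threshold, 4 were higher and 0 lower by limma voom, with a median of 0.21 beside 0, and the count was 2 without sgNeg replicate 1, 2 or 3 and with both sgRNAs as 1 group. By sgRNA 5 were higher in sgWDR77-1 (9.48% of all genes), and 1 higher and 1 lower in sgWDR77-2 (4.79%), a share near that of all genes. ICAM1 rose by 0.69 (adjusted p = 0.00052), NFKBIZ by 0.64 (adjusted p = 0.0147) and NFKB1 by 0.3 (adjusted p = 0.0156) by limma voom with Benjamini-Hochberg adjustment. Without sgNeg replicate 1 the adjusted p was 0.132 for NFKBIZ and 0.0732 for NFKB1, without replicate 2 it was 0.102 for NFKB1, and without replicate 3 it was 0.0929 for NFKBIZ. NFKB1 was also lost with only the groups compared (0.0668) and with both sgRNAs as 1 group (0.0872). Between the knockouts, where 27.1% of all genes were past the threshold, 10 were higher and 4 lower in PRMT5KO, with a median of 0.16 beside 0.02, while the chemokine median was -0.36. NFKBIA, the gene most like CXCL8, had 0.13 in PRMT5KO and 0.29 in WDR77KO.

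Of 22 cytokines and receptors that induce these chemokines, 14 were tested. In PRMT5KO 4 were higher and 4 lower, and in WDR77KO 3 were higher and 0 lower by limma voom, with medians of -0.11 and 0.16, beside 22.8% and 8.44% of all genes past the threshold. With both sgRNAs as 1 group 2 were higher and 3 lower in PRMT5KO, and 0 were past the threshold in WDR77KO, where 4 were at an unadjusted p under 0.05 in the fit of 5 groups. IL1B and IL1A, which induce CXCL1 and CXCL8 in epithelial cells, rose by 1.78 (SE 0.0856, adjusted p = 8.21e-12) and 1.36 (SE 0.0887, adjusted p = 8.52e-10) in PRMT5KO by limma voom with Benjamini-Hochberg adjustment. In WDR77KO they rose by 0.41 (adjusted p = 0.004) and 0.61 (adjusted p = 9.37e-05), and the knockouts differed by 1.37 for IL1B and 0.75 for IL1A. The IL1B call in WDR77KO was lost without sgNeg replicate 3 (adjusted p = 0.0675), and the count for WDR77KO was then 1. With both sgRNAs as 1 group the WDR77KO calls of IL1B (0.423) and IL1A (0.0955) were both lost. CXCL1 ran the other way between the knockouts, at -0.79. TLR5, the receptor for flagellin, changed by -2 in PRMT5KO and OSMR, a receptor of oncostatin M, by 0.27 in WDR77KO. The OSMR call was lost without sgNeg replicate 2 (adjusted p = 0.118) or 3 (0.182) and without sgWDR77-2 replicate 2 (0.0683) or 3 (0.0732), and with only the groups compared (0.092) or both sgRNAs as 1 group (0.085).

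Genes of the interferon list differed between the knockouts, although the interferon-induced chemokines were barely detected. Of 32 genes, 29 were tested. In PRMT5KO 10 were lower and 0 higher by limma voom, where 22.8% of all genes were past the threshold, with a median of -0.25. In sgPRMT5-2, with 31.0% of all genes past the threshold, 13 were lower with a median of -0.43. In sgPRMT5-1, with 2.87% of all genes, 0 passed by limma voom, 2 were at an unadjusted p under 0.05 and the median was -0.03. Directly compared, with 7.53% of all genes, 9 were lower in sgPRMT5-2 than in sgPRMT5-1. In WDR77KO 8 were higher and 0 lower, where 8.44% of all genes were past the threshold, with a median of 0.27, and 9 were higher in sgWDR77-1 (9.48% of all genes) and 7 in sgWDR77-2 (4.79%). Between the knockouts 18 were lower in PRMT5KO and 0 higher, where 27.1% of all genes were past the threshold, with a median of -0.5 beside 0.02 for all genes, and this count was 17 to 21 in the other settings. Both sgRNAs as 1 group was not run between the knockouts, so that range leaves out the spread between sgRNAs. The PRMT5KO count was 3 without sgNeg replicate 1 and 2 with both sgRNAs as 1 group, and the WDR77KO count was 13 without sgWDR77-1 replicate 1 and 6 with both sgRNAs as 1 group. By limma voom with Benjamini-Hochberg adjustment the antiviral genes MX1 and IFI44L rose by 1.32 (adjusted p = 0.000224) and 1.29 (adjusted p = 0.000279) in WDR77KO, and IFIH1, a sensor of double-stranded RNA, by 0.59 (adjusted p = 0.00083). OAS2, an antiviral enzyme, changed by -1.43 (adjusted p = 0.00142), the transcription factor IRF1 by -0.55 (adjusted p = 0.00107) and IFIT1 by -0.49 (adjusted p = 0.00706) in PRMT5KO, the last at 0.0503 without sgNeg replicate 1 and 0.126 with both sgRNAs as 1 group. MX1 differed by -1.96 and IFI44L by -2.04 between the knockouts.

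Of 9 genes of AU-rich element decay, which acts on several chemokine mRNAs, 9 were tested. In PRMT5KO 1 was higher and 1 lower, a share close to the 22.8% of all genes, KHSRP with 0.33 (adjusted p = 0.0112) and ZFP36L2 with -0.36 (adjusted p = 0.0278) by limma voom with Benjamini-Hochberg adjustment. The KHSRP call was lost without sgNeg replicate 1 (0.084) or 2 (0.066), and that of ZFP36L2 without sgNeg replicate 1 (0.0962) or 2 (0.0818) and without sgPRMT5-2 replicate 2 (0.0504), and with upper quartile scaling (0.0712), no filter (0.0577) or both sgRNAs as 1 group (0.0508). In WDR77KO, with 8.44% of all genes past the threshold, 0 passed by limma voom, 1 was at an unadjusted p under 0.05, and the median was 0.05.

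**Figure D4:**
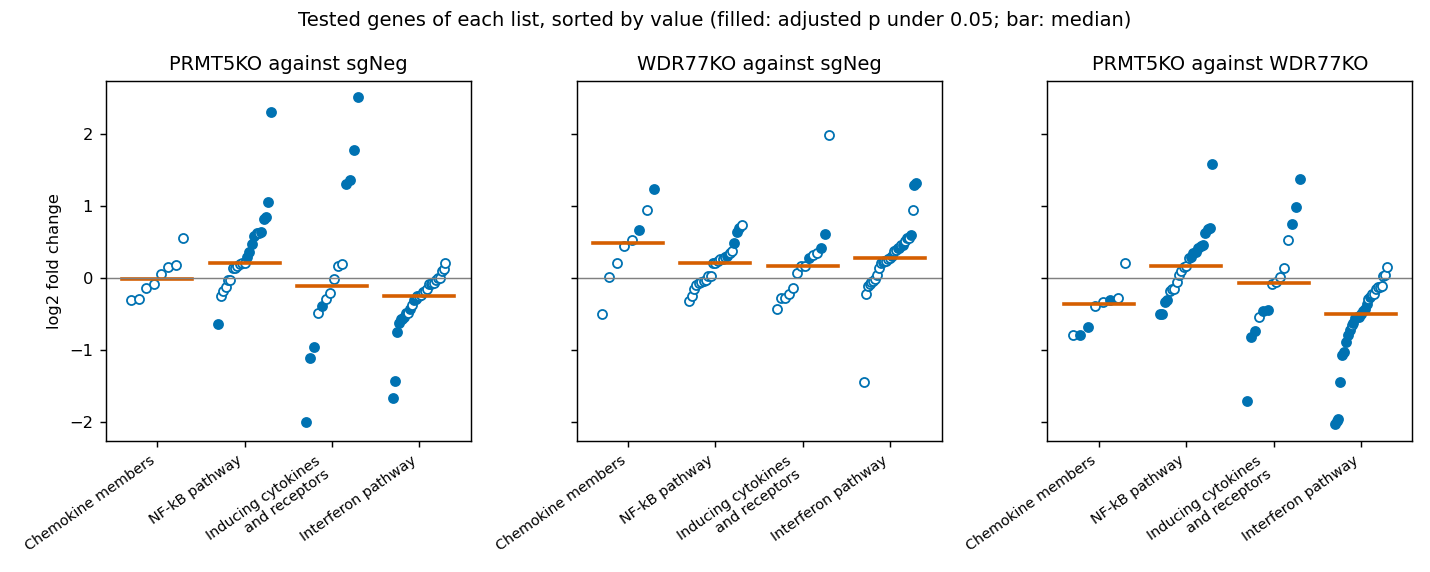
Log2 fold change (y axis) of each tested gene of the chemokines, the NF-kB pathway, the inducing cytokines and receptors, and the interferon pathway, sorted by value, in PRMT5KO and WDR77KO against sgNeg and against each other (filled, adjusted p under 0.05; bar, median). The interferon medians are -0.25, 0.27 and -0.5, and the chemokine medians are -0.01, 0.48 and -0.36.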

How the data were processed

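RNA from 15 HSC-5 libraries was sequenced, and the authors used STAR for alignment to hg38 and HTSeq for gene counts. The deposited values are whole-number read counts per gene, not normalized, a unit declared as other. Of the listed genes, 60463 of 60605 distinct identifiers matched GENCODE release 44. The summary entries were left out. They showed 2.75% to 7.16% of reads on no feature, 7.09% to 7.93% ambiguous and 9.49% to 13.1% not unique.

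Counts were scaled by TMM (trims of 0.3 and 0.05) and genes with a mean normalized count of at least 3 were fitted in 1 model of 5 groups with limma voom (limma 3.58.1, R 4.3.3), with Benjamini-Hochberg adjustment and a threshold of 0.05. PRMT5KO and WDR77KO were the means of their 2 sgRNA groups. The fit was tested on simulated counts with the same spread setting for all genes, which does not cover the uneven replicates described above. Ratios of CXCL8 to CXCL1 reads were compared by exact permutation of libraries. RPKM used exon lengths from GENCODE.

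The members and lists were chosen with earlier results of these data known. Named were all 10 chemokines, the targeted genes, up to 3 genes per list and knockout with the smallest adjusted p, other ligands past the filter, up to 3 of the genes most like each chemokine and the most abundant marker of each list. KRT14, TP63, the fold changes of NFKBIA, ligands, receptors and markers named for having no or few reads or for overlap with other genes, marker values by sgRNA (CSF1R among them), and values between knockouts for listed genes fall outside that rule and were added after their values were seen, as was the ratio of CXCL8 to CXCL1. Alternatives were RLE, upper quartile and library totals as scaling, a mean normalized count of at least 10 or no filter, a block for the replicate number, sample quality weights, limma-trend, only the groups compared, both sgRNAs as 1 group, and each library left out in turn. Both sgRNAs as 1 group was run only for PRMT5KO and WDR77KO against sgNeg, not between the knockouts. The planned edgeR and DESeq2 fits were not run.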

Additional observations from a re-analysis of the deposited data

Results flagged for a closer look

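In the 6 PRMT5KO libraries, CXCL8 had 1 library apart from the others. sgPRMT5-1 replicate 3, at 247 CPM, was below the rest, and its gap to the nearest library was 0.696 of the whole range of the group. This was 1 of 16 groups of a chemokine in a knockout that were looked at in this way, and chance gives about 1 in 20. The part of that library in the CXCL8 values was not tested beyond leaving it out.

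The knockouts differed from each other by the direct test of PRMT5KO against WDR77KO for CXCL1 (-0.79), CXCL16 (-0.31) and CCL20 (-0.68) on the log2 scale. For CXCL16 sgWDR77-2, with a mean of 16.5 CPM, was level with PRMT5KO at 16.4, while sgWDR77-1 was at 25.2. For CCL20 sgWDR77-2, at 17.3 CPM, was below sgPRMT5-2 at 18. The WDR77 sgRNAs differed from each other, sgWDR77-2 against sgWDR77-1, for CXCL1 (-0.78) and CXCL16 (-0.61).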

How the results depend on the processing

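Of the 11 chemokine values past the threshold, 3 kept it in every setting run for them, CXCL1 and CCL20 in sgWDR77-1 against sgNeg and CXCL1 in PRMT5KO against WDR77KO. Of 73 values of other named genes, 51 did. Over the settings that leave out no library, 1268 of 1339 log2 fold changes kept direction and side of the threshold, 48 lost and 14 gained a call, and 9 changed sign. With libraries left out, 1122 of 1248 kept both, 84 lost and 9 gained a call, and 33 changed sign.

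The number of chemokines past the threshold moved as follows, and the cause was not tested. With library totals alone it was 0 in sgPRMT5-2 against sgNeg and 1 in PRMT5KO. With no filter on low counts it was 0 in sgPRMT5-2, 2 in sgWDR77-1 against sgNeg, where CXCL8 was lost, 1 in PRMT5KO against WDR77KO and 0 in sgWDR77-2 against sgWDR77-1. With sample quality weights it was 2 in sgPRMT5-2, 2 in sgWDR77-2, 4 in WDR77KO, 5 in PRMT5KO against WDR77KO and 2 in sgPRMT5-2 against sgPRMT5-1. With only the groups compared it was 3 in sgPRMT5-2, 2 in sgPRMT5-2 against sgPRMT5-1 and 0 in sgWDR77-2 against sgWDR77-1. With both sgRNAs as 1 group it was 0 in WDR77KO. With each library left out the lowest and highest counts were 0 and 0 in sgPRMT5-1, 0 and 1 in sgPRMT5-2, 2 and 3 in sgWDR77-1, 0 and 1 in sgWDR77-2, 0 and 1 in PRMT5KO and 0 and 3 in WDR77KO. They were 1 and 5 in PRMT5KO against WDR77KO, 0 and 1 in sgPRMT5-2 against sgPRMT5-1 and 0 and 2 in sgWDR77-2 against sgWDR77-1.

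With the replicate number as a block, the number in sgWDR77-2 against sgWDR77-1 was 1, with CXCL1 at an adjusted p of 0.0529 (from 0.0129 to 0.232 over its settings). The numbers showed little pairing, since 4 of 30 correlations of libraries with the same number exceeded 0.1 (r from -0.332 to 0.272) and 9 of 30 were highest with their own number.

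Changes of sign were among values that were not called, and their cause was not tested. With library totals alone CXCL8 was -0.01 in sgPRMT5-1 and CXCL2 -0.03 in PRMT5KO, and CXCL16 was 0 in WDR77KO and in sgPRMT5-2 against sgPRMT5-1, both crossing zero before rounding. With sample quality weights CXCL3 was -0.11 in sgWDR77-1, -0.02 in WDR77KO and 0.18 in sgWDR77-2 against sgWDR77-1, CXCL11 was 0.03 in sgWDR77-2, and CXCL16 was -0.01 in sgPRMT5-2 against sgPRMT5-1. With libraries left out, sgPRMT5-1 gave -0.48 to 0.1 for CXCL2, -0.12 to 0.25 for CXCL8, -0.74 to 0.05 for CXCL11 and -0.13 to 0.51 for CCL20. sgPRMT5-2 gave -0.09 to 0.38 for CXCL3 and -0.51 to 0.37 for CXCL11, and sgWDR77-2 gave -0.1 to 0.37 for CXCL3 and -0.68 to 0.11 for CXCL11. PRMT5KO gave -0.11 to 0.18 for CXCL2, -0.3 to 0.16 for CXCL3 and -0.4 to 0.42 for CCL5, and WDR77KO gave -0.02 to 0.44 for CXCL3 and -0.09 to 0.1 for CXCL16. PRMT5KO against WDR77KO gave -0.05 to 0.47 for CXCL11. sgPRMT5-2 against sgPRMT5-1 gave -0.26 to 0.81 for CXCL11 and -0.06 to 0.09 for CXCL16, and sgWDR77-2 against sgWDR77-1 gave -0.09 to 0.42 for CXCL2, -0.43 to 0.1 for CXCL3 and -0.04 to 0.78 for CXCL11. CXCL11, with a mean normalized count of 3.07, lay at the filter and had no value without some libraries. Its ranges rest on 4 left-out libraries for each sgRNA named here and between the PRMT5 sgRNAs. They rest on 5 between the WDR77 sgRNAs and on 9 between the knockouts.

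Scaling moved the share of higher genes among all called genes by more than 10 points in some comparisons, and no median of all genes by over 0.1. Library totals gave 27.1% in place of 43.8% in sgPRMT5-1, 37.9% in place of 52.6% in sgPRMT5-2, 34.2% in place of 52.7% in PRMT5KO, 41% in place of 57.8% in PRMT5KO against WDR77KO and 59.8% in place of 76.4% in sgWDR77-2 against sgWDR77-1. Upper quartile scaling gave 62.9% in place of 52.6% in sgPRMT5-2, 52% in place of 37.7% in sgWDR77-1, 45% in place of 34.3% in WDR77KO and 59.1% in place of 47.1% in sgPRMT5-2 against sgPRMT5-1. The planned edgeR and DESeq2 fits were not run. At this depth CXCL5 and CXCL10 could not be tested and CXCL11 and CCL5 have wide intervals.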
